A study of Homo sapiens with 12 samples.

Results

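The miR-15/16 family was followed through small RNA libraries of 2 acute myeloid leukemia (AML) cell lines, MV4-11 and Molm-14. Its members were taken by name. They are hsa-miR-15a-5p, hsa-miR-15b-5p, hsa-miR-15b-3p, hsa-miR-16-5p, hsa-miR-16-2-3p, hsa-miR-195-5p and hsa-miR-497-5p, which makes 7 of the 1204 mature miRNAs counted. Both are human lines with an internal tandem duplication of FLT3. The MPC1 KO cells of each line came from CRISPR/Cas9 editing with 1 guide to MPC1, delivered in lentiCRISPRv2 with GFP to select transduced cells, and the control cells, called EV, carried the Empty Vector. MPC1 protein is part of the carrier that takes pyruvate into mitochondria. Each of the 4 groups (MV4-11 EV, MV4-11 MPC1 KO, Molm-14 EV, Molm-14 MPC1 KO) had 3 libraries. The comparison of MPC1 KO with EV cells asked which miRNAs change when this carrier is lost. Whether the MPC1 KO cells were a single clone is not given in the sources used here.

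A miRNA hairpin is cut by Drosha and Dicer into a duplex with a 5p and a 3p strand, and the strand kept by Argonaute guides repression of mRNAs that pair with its seed, bases 2 to 8. The 5p strands of the miR-15/16 family share a seed, and their known targets include BCL2, an inhibitor of apoptosis, and cyclins that drive entry into S phase. MIR15A and MIR16-1 lie in the 13q14 region that is deleted in many chronic lymphocytic leukemias, where they act as tumor suppressors.

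All 7 member names were found in the RefSeq table of the GRCh38.p14 build, along with those of 1068 of the 1204 counted miRNAs. The mature sequences are printed 5′ to 3′ because the shared seed, and the few bases that separate the members, decide how reads can be told apart. Capitals mark the seed.

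hsa-miR-16-5p: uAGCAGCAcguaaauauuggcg
hsa-miR-15a-5p: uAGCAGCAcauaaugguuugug
hsa-miR-15b-5p: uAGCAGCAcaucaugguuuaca
hsa-miR-195-5p: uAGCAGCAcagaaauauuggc
hsa-miR-497-5p: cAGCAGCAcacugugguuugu
hsa-miR-15b-3p: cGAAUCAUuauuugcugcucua
hsa-miR-16-2-3p: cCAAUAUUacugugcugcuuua

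The 5 members from 5p arms had the same seed. Counted from 1 at the 5′ end, hsa-miR-195-5p differed from hsa-miR-16-5p by G10A and U11G over the 21 bases they share in length. hsa-miR-15a-5p differed from hsa-miR-16-5p at 6 of 22 bases, hsa-miR-15b-5p at 8 of 22, and hsa-miR-497-5p at 10 of 21. The 3p members had other seeds. The seed of hsa-miR-16-2-3p was also that of hsa-miR-195-3p, the other arm of MIR195, while hsa-miR-16-1-3p, the other arm of MIR16-1, had a different one. These 2 arms are shown because, with hsa-miR-16-2-3p, they tell apart hairpins whose 5p strands are the same or nearly so.

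hsa-miR-16-1-3p: cCAGUAUUaacugugcugcuga
hsa-miR-195-3p: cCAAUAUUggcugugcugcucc

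The members came from 3 loci with 2 hairpins each. MIR15A (chr13:50049119-50049201) and MIR16-1 (chr13:50048973-50049061) lay 57 bases apart on the minus strand within the lncRNA gene DLEU2. MIR16-1 was intronic in 15 DLEU2 transcripts, and MIR15A was intronic in 15 and exonic in 8. MIR15B (chr3:160404588-160404685) and MIR16-2 (chr3:160404745-160404825) lay 59 bases apart on the plus strand, in introns of 13 transcripts of SMC4, a condensin subunit. MIR195 (chr17:7017615-7017701) and MIR497 (chr17:7017911-7018022) lay 209 bases apart on the minus strand in the lncRNA gene MIR497HG. The sequence of hsa-miR-16-5p had 2 exact matches in the genome, at chr13:50049027-50049048 and chr3:160404754-160404775. Every other member had 1.

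The libraries held 3870104 to 8683456 counts each, and 659 miRNAs passed the filter on low counts, all 7 members among them. Levels are given as CPM, which scales each count to the library's total after TMM adjustment. MPC1 mRNA is not captured in small RNA libraries, so the deletion could not be checked here. The blood-cell miRNAs hsa-miR-142-3p (17279 to 49607 CPM), hsa-miR-142-5p (5989 to 14186), hsa-miR-223-3p (2678 to 3458) and hsa-miR-155-5p (26482 to 48660) were high in every library. The red-cell miRNAs hsa-miR-451a and hsa-miR-144-3p reached at most 6.70 CPM. Of the markers of other tissues, hsa-miR-122-5p, hsa-miR-124-3p and hsa-miR-141-3p reached at most 9.58 CPM, and hsa-miR-200c-3p was at 104 to 256 CPM. The epithelial marker hsa-miR-375-3p was not among the counted miRNAs. No label says whether replicate libraries were grown as separate cultures, so p-values measure the spread between libraries, which may be technical.

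The 3p strand of MIR16-2 was the most counted member in every group. hsa-miR-16-2-3p had 1487 ± 24.6 CPM (SD, n = 3) in MV4-11 EV and 2996 ± 308 CPM in Molm-14 EV. It was followed by hsa-miR-15b-5p with 859 ± 70.1 and 847 ± 98.6 CPM, then by hsa-miR-15b-3p with 374 ± 37.5 and 474 ± 41.5 CPM, and by hsa-miR-15a-5p with 268 ± 18.5 and 303 ± 23.9 CPM. The order of these 4 was the same in all 4 groups, without overlap between neighbours. Far below them came hsa-miR-16-5p, with 14.3 ± 1.57 CPM in MV4-11 EV and 27.8 ± 3.99 CPM in Molm-14 EV. hsa-miR-195-5p (4.54 ± 1.32 and 14.2 ± 2.84 CPM) and hsa-miR-497-5p (3.05 ± 0.955 and 15.3 ± 2.26 CPM) were the lowest, and their libraries overlapped each other in both EV groups. In MPC1 KO cells the libraries of hsa-miR-195-5p (6.65 ± 0.804 CPM) and hsa-miR-497-5p (4.23 ± 0.149 CPM) did not overlap in MV4-11, and in Molm-14 those of hsa-miR-497-5p (27.7 ± 1.91 CPM) were above hsa-miR-195-5p (18.6 ± 2.31 CPM) and overlapped hsa-miR-16-5p (34.1 ± 7.11 CPM). The members are 21 or 22 bases long, so length hardly enters these comparisons, but the ligation and amplification of small RNAs depend on sequence and their part in the order was not tested.

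**Figure D1:**
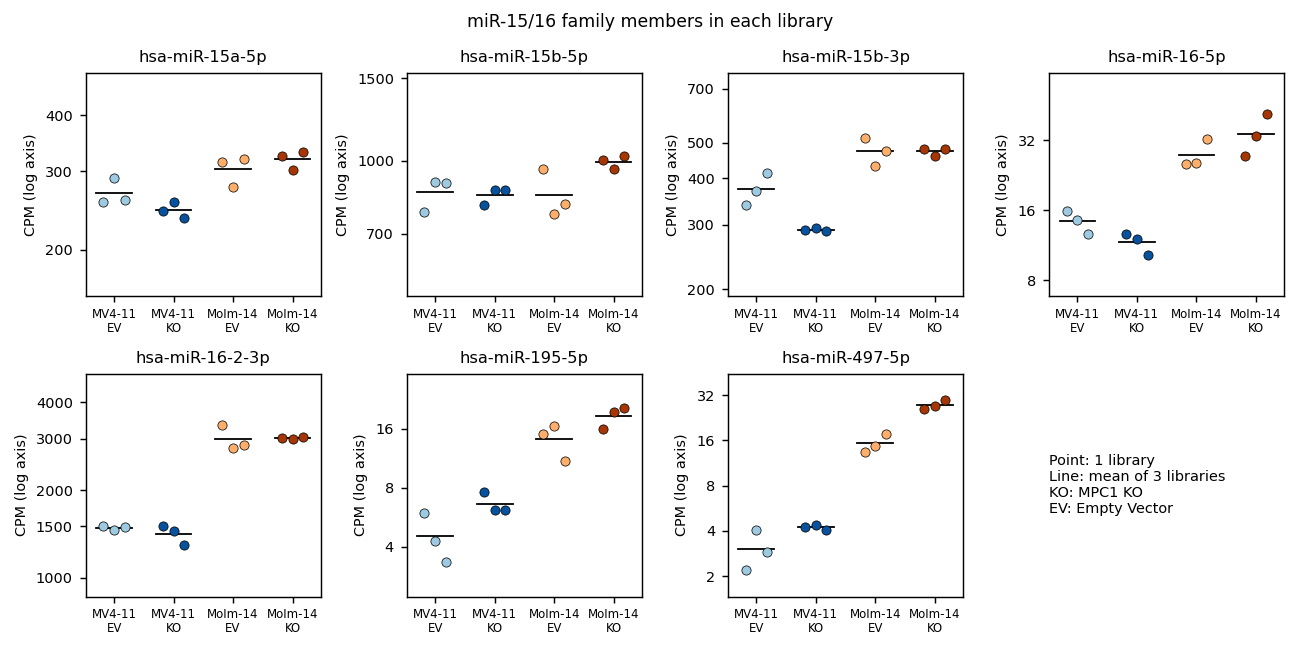
CPM of the 7 members on a log axis in each of the 12 libraries, grouped by cell line and genotype, with the mean of 3 libraries as a line. hsa-miR-16-2-3p, hsa-miR-16-5p, hsa-miR-195-5p, hsa-miR-497-5p and, by a small margin, hsa-miR-15b-3p were higher in every Molm-14 library than in every MV4-11 library. hsa-miR-15a-5p and hsa-miR-15b-5p overlapped between the lines.

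The count of hsa-miR-16-5p, the member with 2 genomic copies, cannot be read as its abundance. Its mean over the libraries was 110 counts, against 11240 for hsa-miR-16-2-3p and 712 for hsa-miR-16-1-3p, the 3p arms of the hairpins that both make it. Other arms encoded at several hairpins were also low, with a mean of 13.1 counts for hsa-miR-24-3p beside 3194 for hsa-miR-24-2-5p. This did not hold for all of them, since hsa-miR-92a-3p had 23528 counts and hsa-miR-128-3p 13661. Among 19 hairpins that pair an arm made by several hairpins with an arm of their own, the shared arm had the lower count in 10. Those 10 include MIR16-1 and MIR16-2 themselves, and some shared arms enter with 2 hairpins. Over all miRNAs matched to the sequence table, the median of the mean counts was 15.3 for 38 miRNAs with 2 or more hairpins. For the 1030 with 1 hairpin it was 8.71. How reads that match several places were counted is not given in the sources used here, and its part in the level of hsa-miR-16-5p was not tested. Its level was therefore tested only between libraries. Its fold changes and ratios, its place in the order of members and its share of the family describe its counts, not its abundance.

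In MV4-11, deletion of MPC1 went with lower hsa-miR-15b-3p, the 3p strand of MIR15B, and with no other call among the members. The EV libraries held 339, 369.9 and 413 CPM of hsa-miR-15b-3p, and the MPC1 KO libraries 290.0, 293 and 287 CPM. The 3 MPC1 KO libraries lay close together and all below the EV libraries. In such bulk libraries, a lower level in each cell and fewer cells that hold the miRNA cannot be told apart. Its log2 fold change was -0.37 (SE 0.10, a 1.29-fold decrease), with an adjusted p of 0.0339 in edgeR's quasi-likelihood test. That was 1 of 7 members called, where 3.03% of all 659 miRNAs were called in this comparison. The call was a narrow one. The adjusted p ran from 0.00583 to 0.166 over 9 other ways of processing, of which 5 kept it, and from 0.00759 to 0.116 when single libraries were left out, of which 8 of 12 ended it.

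The main 5p strand of the same hairpin did not move with it. hsa-miR-15b-5p was at 778, 903 and 895 CPM in the EV libraries and at 804, 868 and 868 CPM in the MPC1 KO libraries. The groups overlapped fully, with a log2 fold change of -0.02 (95% interval -0.22 to 0.18). Its cluster mate hsa-miR-16-2-3p overlapped as well, with 1508, 1460.0 and 1492 CPM in EV against 1509, 1451 and 1294 CPM in MPC1 KO (log2 fold change -0.07, 95% interval -0.26 to 0.13).

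The other members of the MV4-11 comparison missed the threshold. hsa-miR-15a-5p went from 256, 289.5 and 259 CPM to 244, 255 and 236 CPM, with a log2 fold change of -0.13 and an adjusted p of 0.632 by edgeR. hsa-miR-16-5p went from 15.8, 14.5 and 12.7 CPM to 12.6, 12.04 and 10.2 CPM (log2 fold change -0.31, SE 0.19, adjusted p = 0.532 by edgeR). In both, the highest MPC1 KO library was only just below the lowest EV library. hsa-miR-195-5p and hsa-miR-497-5p had positive log2 fold changes of 0.48 (SE 0.25) and 0.53 (SE 0.27), with adjusted p of 0.413 and 0.403. These values rested on few reads, 14 to 49 and 12 to 18 counts per EV library. The 12 counts of hsa-miR-497-5p in 1 EV library correspond to 2.87 CPM with a 95% Poisson interval of 1.48 to 5.02 CPM, which covers counting error only. In all, the groups did not overlap for 4 of 7 members, hsa-miR-15a-5p, hsa-miR-15b-3p and hsa-miR-16-5p on the lower side and hsa-miR-195-5p on the higher. Over all miRNAs tested this held for 17.5%.

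In Molm-14, the member called was a different one, hsa-miR-497-5p, which shares the family seed and comes from MIR497 on chromosome 17. Its EV libraries held 13.4, 14.7 and 17.8 CPM and its MPC1 KO libraries 26.1, 27.1 and 29.8 CPM. Every MPC1 KO library was above every EV library, from counts of 55 to 79 against 127 to 148. hsa-miR-497-5p rose 1.81-fold (95% interval 1.38 to 2.37), a log2 fold change of 0.86 (SE 0.19) with an adjusted p of 0.00364 in edgeR's quasi-likelihood test. That was 1 of 7 members called, beside 6.83% of all miRNAs tested. It was also the only member whose groups did not overlap, where 27.2% of all miRNAs had no overlap. The adjusted p stayed between 0.00117 and 0.0291 when single libraries were left out, and a filter that asks for a mean of at least 100 counts removes hsa-miR-497-5p from the test.

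The neighbouring hairpin MIR195 gave smaller values in Molm-14. hsa-miR-195-5p was at 14.97, 16.5 and 11.02 CPM in EV and at 16.002, 19.4 and 20.4 CPM in MPC1 KO, with an overlap of 1 library and a log2 fold change of 0.39 (SE 0.21, adjusted p = 0.323 by edgeR). Its other arm hsa-miR-195-3p had 17.0, 17.9 and 13.5 CPM in EV and 23.4, 28.6 and 27.4 CPM in MPC1 KO. These groups did not overlap, but the log2 fold change of 0.72 (SE 0.25) had an adjusted p of 0.0837. The 3 arms counted from MIR195 and MIR497 all had positive fold changes in Molm-14, and 1 of them passed the test. A positive sign was not particular to this locus, since 6 of 7 members had it in Molm-14. Over all miRNAs tested it held for 313 of 659. In MV4-11 the log2 fold change of hsa-miR-195-3p was -0.08 (SE 0.31).

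The abundant members in Molm-14 did not pass the test. hsa-miR-15b-5p was at 959, 772 and 810.1 CPM in EV and at 1002, 958 and 1024 CPM in MPC1 KO (log2 fold change 0.23, SE 0.10, adjusted p = 0.166 by edgeR). One EV library reached the level of the MPC1 KO libraries, and without that library the adjusted p was 0.0470. The other 11 of 12 fits without a single library (adjusted p up to 0.342 by edgeR) and all 9 other alternatives made no call. hsa-miR-15b-3p was level between the groups, with 515, 432 and 475 CPM against 481, 459 and 481 CPM (log2 fold change -0.00, 95% interval -0.20 to 0.20). hsa-miR-16-2-3p was also level (0.01, 95% interval -0.18 to 0.21), as was hsa-miR-15a-5p (0.07, 95% interval -0.13 to 0.27). hsa-miR-16-5p had 25.4, 25.6 and 32.4 CPM in EV and 27.3, 33.4 and 41.5 CPM in MPC1 KO, an overlap, with a log2 fold change of 0.29 and an adjusted p of 0.386.

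**Figure D2:**
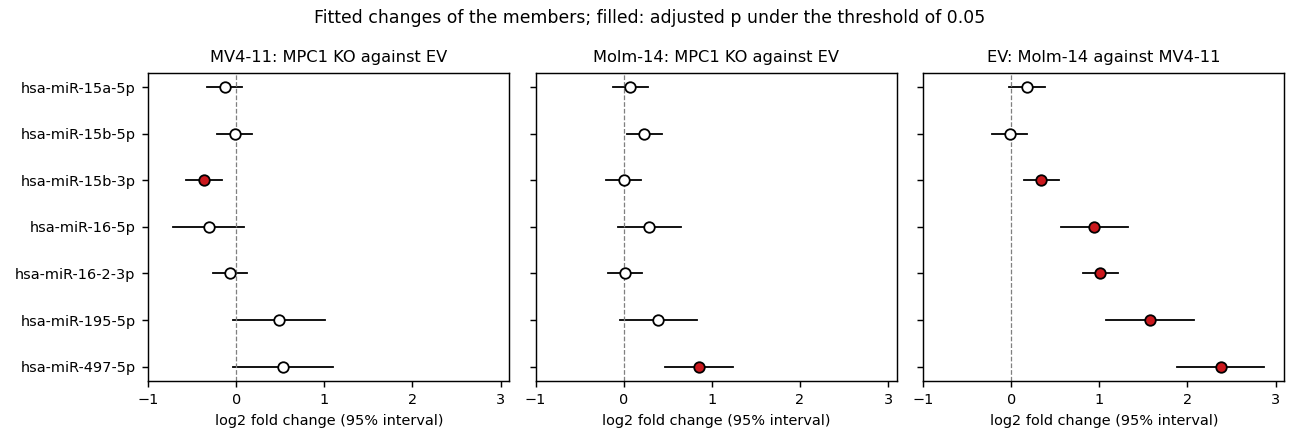
Log2 fold changes of the 7 members with 95% intervals in 3 comparisons, filled where the adjusted p was under 0.05. Only hsa-miR-15b-3p was called in MV4-11 and only hsa-miR-497-5p in Molm-14, whereas 5 members were higher in Molm-14 EV than in MV4-11 EV.

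That different members were called in the 2 lines does not show that the lines differed. The difference of the MPC1 KO effects (Molm-14 minus MV4-11) was tested directly, and 0 of 7 members passed in edgeR, beside 6.68% of all miRNAs tested. Unadjusted p-values were under 0.05 for 2 members, hsa-miR-15b-3p (difference 0.36, 95% interval 0.08 to 0.65, adjusted p = 0.133) and hsa-miR-16-5p (0.60, 95% interval 0.06 to 1.14, adjusted p = 0.227). With DESeq2 the count was also 0. For hsa-miR-497-5p the difference was 0.32 with a 95% interval of -0.37 to 1.02, wide enough to hold both an equal effect and one of a further 2.03-fold.

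The balance between the strands of MIR15B changed in the same direction in both lines. Ratios of 2 counts within a library do not depend on how libraries are scaled, so the 5p to 3p ratio of MIR15B was computed in each library. The log2 ratio was 1.20, 1.29 and 1.11 in MV4-11 EV and 1.47, 1.57 and 1.59 in MV4-11 MPC1 KO. In Molm-14 it was 0.90, 0.84 and 0.77 in EV and 1.06, 1.06 and 1.09 in MPC1 KO. In each line every MPC1 KO library lay above every EV library. The mean rise was 0.29 on the log2 scale, a 1.22-fold shift towards hsa-miR-15b-5p, made of 0.34 in MV4-11 and 0.23 in Molm-14. The exact two-sided permutation test with labels exchanged within each line gave p = 0.005, the smallest its 400 relabellings can give, and 0.0175 after adjustment over 14 tests. Within 1 line alone, an exact test of 3 libraries against 3 cannot go below p = 0.1. In the fits above, hsa-miR-15b-3p was the strand called in MV4-11, and neither strand was called in Molm-14, where the larger fold change was that of hsa-miR-15b-5p.

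To place this ratio, the same ratio was then computed for 137 hairpins whose arms both passed the filter and come from a single hairpin, a count added after the MIR15B ratio had been seen. In 4 of them, 2.92%, the MPC1 KO and EV libraries did not overlap in either line and moved in 1 direction. These were MIR15B, MIR98, MIRLET7D and MIR4742, and in all 4 the 5p arm gained. In 2 further hairpins, MIR18A and MIR877, the groups did not overlap in either line but moved in opposite directions. The median size of the shift over the 137 hairpins was 0.18 in MV4-11 and 0.24 in Molm-14, beside 0.34 and 0.23 for MIR15B, and 36 and 69 of them had a larger shift than MIR15B. Among the 18 hairpins whose arms both had a mean of at least 1000 counts, the medians were 0.15 and 0.16, and 1 hairpin in MV4-11 and 5 in Molm-14 had a larger shift than MIR15B.

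**Figure D3:**
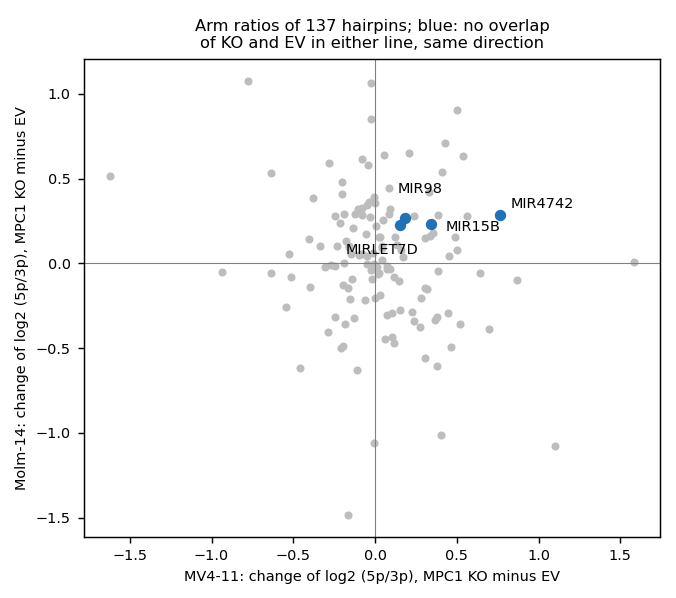
Change of the log2 5p to 3p ratio from EV to MPC1 KO in MV4-11 (horizontal) and Molm-14 (vertical) for 137 hairpins, 1 point each, with the 4 whose groups did not overlap in either line and moved in 1 direction in blue. MIR15B sits at 0.34 and 0.23, within the range of all hairpins.

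The remaining ratios did not pass between MPC1 KO and EV. The ratio of hsa-miR-15a-5p to hsa-miR-15b-5p sets a 5p strand of chromosome 13 against one of chromosome 3, not hairpin against hairpin. It was lower by 0.11 on the log2 scale in MV4-11 and by 0.16 in Molm-14. The mean difference was -0.14, with an exact permutation p of 0.04 and an adjusted p of 0.07. It passed without replicate 3 of MV4-11 EV (adjusted p = 0.028, exact permutation test) and without replicate 1 of Molm-14 EV (adjusted p = 0.035). hsa-miR-16-1-3p to hsa-miR-16-2-3p (mean difference -0.06), hsa-miR-16-5p to the sum of hsa-miR-15a-5p and hsa-miR-15b-5p (-0.09), hsa-miR-195-5p to hsa-miR-497-5p (-0.20) and hsa-miR-16-5p to hsa-miR-16-2-3p (0.02) had adjusted p of 0.605 or more in the same exact tests. Each of these 4 means joins changes of opposite sign. In MV4-11 and Molm-14 they were -0.20 and 0.084, -0.26 and 0.085, 0.066 and -0.46, and -0.23 and 0.26, in that order. The groups overlapped in all of them except hsa-miR-16-5p to hsa-miR-16-2-3p in MV4-11, where every MPC1 KO library was below every EV library, and the difference between the lines was not tested for these ratios.

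More members were called between the cell lines than between the genotypes. In the EV cells, 5 of 7 members were higher in Molm-14 than in MV4-11 and none was lower by edgeR's test. Over all 659 miRNAs, 61.9% were called between the lines, 33.5% higher and 28.4% lower in Molm-14, so calls were common in this comparison. The median log2 fold change was 0.94 over the members and 0.06 over all miRNAs tested. The EV libraries used here are also those of the MPC1 KO comparisons. Libraries of the lines did not overlap for the same 5 members, where this held for 64.2% of all miRNAs.

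The members from chromosome 17 had the largest fold changes of the 7 between the lines. hsa-miR-497-5p was at 2.19, 4.08 and 2.87 CPM in MV4-11 EV and at 13.4, 14.7 and 17.8 CPM in Molm-14 EV, a 5.19-fold difference (95% interval 3.69 to 7.32, adjusted p = 4.71e-09 by edgeR). hsa-miR-195-5p was at 5.96, 4.30 and 3.35 CPM in MV4-11 EV and at 14.97, 16.5 and 11.02 CPM in Molm-14 EV, a 2.98-fold difference (95% interval 2.11 to 4.20, adjusted p = 3.63e-06 by edgeR). The lines were well apart for both, although each level was low.

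MIR15B and MIR16-2, which lie 59 bases apart in the same introns, gave different values between the lines. hsa-miR-16-2-3p was at 1508, 1460.0 and 1492 CPM in MV4-11 EV and at 3349, 2783 and 2857 CPM in Molm-14 EV, a 2.02-fold difference (95% interval 1.76 to 2.31, adjusted p = 1.37e-09 by edgeR). hsa-miR-15b-3p differed 1.27-fold (95% interval 1.10 to 1.46, adjusted p = 0.00339 by edgeR). hsa-miR-15b-5p did not differ beyond its spread, with a log2 fold change of -0.02 (95% interval -0.22 to 0.18). In the cluster on chromosome 13, hsa-miR-15a-5p was at 0.18 (SE 0.10, adjusted p = 0.114 by edgeR). Its other arm hsa-miR-15a-3p, with 18 counts or fewer per EV library, was at 0.63 (SE 0.36, adjusted p = 0.132 by edgeR), without overlap of the lines. hsa-miR-16-1-3p, the 3p arm of the neighbouring hairpin, was 2.32-fold higher in Molm-14 (95% interval 1.93 to 2.79, adjusted p = 1.24e-08 by edgeR). The counts of hsa-miR-16-5p, which both clusters make, were 1.92-fold higher (95% interval 1.48 to 2.499, adjusted p = 9.50e-05 by edgeR). With upper-quartile scaling the call of hsa-miR-15b-3p was lost (log2 fold change 0.17, adjusted p = 0.165), and it was lost without replicate 1 of either EV group.

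Within libraries the same contrast appeared as ratios. The log2 ratio of hsa-miR-16-5p to the sum of hsa-miR-15a-5p and hsa-miR-15b-5p was -6.02, -6.35 and -6.49 in MV4-11 EV and -5.64, -5.35 and -5.12 in Molm-14 EV. In the MPC1 KO cells it was -6.36, -6.53 and -6.74 in MV4-11 and -5.60, -5.23 and -5.03 in Molm-14. It was higher in Molm-14 by 1.09 on the log2 scale over both genotypes, or 2.13-fold, with an exact permutation p of 0.005 and an adjusted p of 0.0175. The ratio of hsa-miR-16-2-3p to hsa-miR-15b-5p, added after the data were seen and given without a test, had a mean log2 of 0.80 (EV) and 0.74 (MPC1 KO) in MV4-11, and of 1.82 (EV) and 1.60 (MPC1 KO) in Molm-14. Its counterpart on chromosome 13, hsa-miR-16-1-3p to hsa-miR-15a-5p, had means of -1.65, -1.79, -0.60 and -0.57 in that order.

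**Figure D4:**
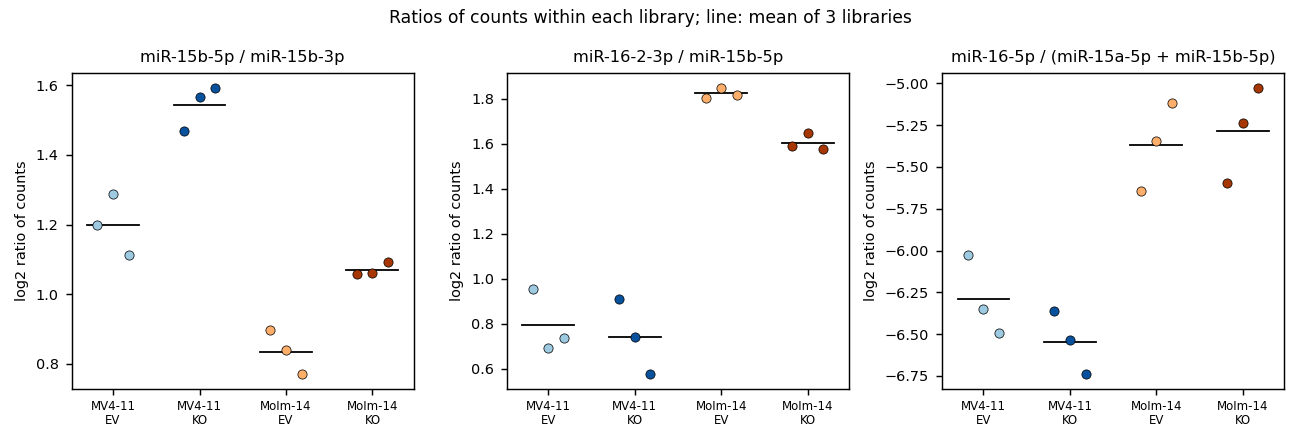
Log2 ratios of counts within each of the 12 libraries for hsa-miR-15b-5p to hsa-miR-15b-3p, hsa-miR-16-2-3p to hsa-miR-15b-5p, and hsa-miR-16-5p to the sum of hsa-miR-15a-5p and hsa-miR-15b-5p, with the mean of 3 libraries as a line. The first ratio was higher in MPC1 KO than in EV libraries of each line, and the other 2 were higher in every Molm-14 than in every MV4-11 library.

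Other ratios also differed between the lines. The 5p to 3p ratio of MIR15B was lower in Molm-14 by a mean of 0.42 on the log2 scale (difference -0.42), with an exact permutation p of 0.005 and an adjusted p of 0.0175. hsa-miR-195-5p to hsa-miR-497-5p differed by -0.95 (adjusted p = 0.04, exact permutation test), hsa-miR-16-1-3p to hsa-miR-16-2-3p by 0.36 (adjusted p = 0.04) and hsa-miR-15a-5p to hsa-miR-15b-5p by 0.17 (adjusted p = 0.028). The EV libraries of the lines overlapped for each of these 3, and the MPC1 KO libraries did not. Leaving out a single library ended these calls in 3, 6 and 1 of 12 fits, in that order. For hsa-miR-16-5p to hsa-miR-16-2-3p the difference of 0.19 had an adjusted p of 0.342.

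Together the 7 members held 0.303% ± 0.0270 (SD, n = 3) of the counts of MV4-11 EV and 0.298% ± 0.0145 of those of MV4-11 MPC1 KO. In Molm-14 they held 0.449% ± 0.0411 of the EV counts and 0.479% ± 0.0240 of the MPC1 KO counts. The genotypes overlapped in each line, and the lines did not overlap. hsa-miR-16-2-3p alone made up 49.4% ± 2.16 of the family's counts in MV4-11 EV and 64.0% ± 0.757 in Molm-14 EV, and hsa-miR-15b-5p 28.5% ± 1.52 and 18.1% ± 0.334. hsa-miR-16-5p made up 0.478% ± 0.0663 and 0.599% ± 0.114 of these counts. Shares of all members depend on how its reads were counted, which was not tested.

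By locus, MIR15B and MIR16-2 gave most of the reads in every group. Of the counts of the 9 arms that come from 1 locus only, their 3 arms held 88.0% ± 1.08 (EV) and 88.5% ± 0.0362 (MPC1 KO) in MV4-11, and 88.6% ± 0.721 (EV) and 88.0% ± 0.225 (MPC1 KO) in Molm-14. The 3 arms of MIR15A and MIR16-1 held group means of 10.4% to 11.6%. The 3 arms of MIR195 and MIR497 held 0.413% ± 0.143, 0.557% ± 0.0609, 0.943% ± 0.133 and 1.43% ± 0.125 in the same order. The share of this last locus was at most 0.627% in the MV4-11 libraries and at least 0.839% in the Molm-14 libraries. Its MPC1 KO and EV libraries overlapped in MV4-11 and not in Molm-14.

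**Figure D5:**
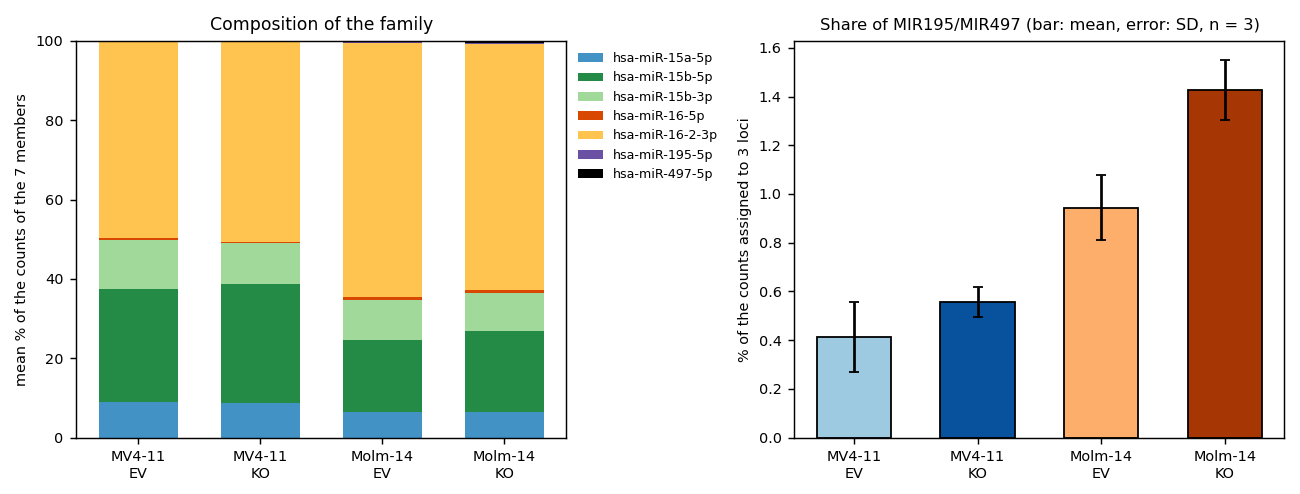
Left, mean share of each member in the counts of the 7 members by group. Right, share of the MIR195 and MIR497 locus in the counts of the 9 arms with a single locus, as mean and SD of 3 libraries. hsa-miR-16-2-3p made up about as many counts as all other members in MV4-11 and most of them in Molm-14, and the MIR195 and MIR497 share was 1.43% in Molm-14 MPC1 KO.

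The other arms and the relatives outside the 7 members were taken by sequence. The family seed was found in 2 further counted miRNAs, hsa-miR-424-5p from the X chromosome and hsa-miR-6838-5p, which had 0 to 14 counts per library and did not pass the filter. hsa-miR-503-5p, hsa-miR-103a-3p and hsa-miR-107 have 5′ ends close to the seed. Of these, 7 were tested, including the other arms hsa-miR-15a-3p, hsa-miR-16-1-3p and hsa-miR-195-3p. By edgeR 1 of 7 was called in MV4-11 and 0 in Molm-14, beside 3.03% and 6.83% of all miRNAs tested. In Molm-14, 1 of them had an unadjusted p under 0.05, and DESeq2 called 1 and limma-voom 0. Between the EV cells 4 of 7 were called, all higher in Molm-14. Over all miRNAs tested 61.9% were called there, 33.5% higher in Molm-14. The median log2 fold change was 1.19 over the 7 and 0.06 over all miRNAs tested. Whether the 7 stand apart from the rest was not tested.

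hsa-miR-503-5p, which is made beside hsa-miR-424-5p, was the one called in MV4-11. Its EV libraries held 249.7, 254 and 278 CPM and its MPC1 KO libraries 327, 373 and 329 CPM, without overlap. It rose 1.32-fold (log2 fold change 0.40, SE 0.09, adjusted p = 0.00949 by edgeR). In Molm-14 the log2 fold change was -0.04 (SE 0.09), and the difference between the lines was -0.43 (SE 0.13, adjusted p = 0.0404 by edgeR). That difference lost its call with upper-quartile scaling (-0.25, adjusted p = 0.337 by edgeR) and when most single libraries were left out. hsa-miR-424-5p, which has the family seed, was at 50.9, 63.4 and 65.4 CPM in MV4-11 EV and at 79.1, 82.3 and 69.7 CPM in MPC1 KO, without overlap but short of the threshold (log2 fold change 0.37, adjusted p = 0.107). Between the EV cells hsa-miR-424-5p was 3.09-fold and hsa-miR-503-5p 2.29-fold higher in Molm-14, with adjusted p of 3.54e-11 and 3.87e-11 by edgeR. hsa-miR-497-3p was not among the counted miRNAs, so it could not be analysed here.

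Over the 12 libraries the members followed one another to different degrees. The Pearson correlation of log2 CPM was 0.94 between hsa-miR-16-5p and hsa-miR-16-2-3p, 0.92 between hsa-miR-195-5p and hsa-miR-497-5p, and 0.51 between hsa-miR-15b-5p and hsa-miR-15b-3p. hsa-miR-15b-5p had its highest correlation with another member at 0.61, with hsa-miR-15a-5p. These values are a description, since the libraries fall into 2 lines and share their scaling. The tested miRNAs most like hsa-miR-16-5p were hsa-miR-19b-3p (r = 0.97), hsa-miR-18a-5p (0.97) and hsa-miR-19b-1-5p (0.97), out of 323 with a mean of at least 10 CPM. Within the 6 libraries of a line these correlations were 0.64 to 0.88. Those most like hsa-miR-15b-5p were hsa-miR-3940-3p (0.88), hsa-miR-140-3p (0.83) and hsa-miR-484 (0.79), and within a line they ranged from -0.01 to 0.95.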

How the data were processed

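Small RNA libraries had been made from total RNA of MV4-11 and Molm-14 cells with the Qiagen miRNeasy kit and the NEBNext small RNA kit. The deposited table holds the authors' raw counts of reads on each mature miRNA, without normalization. The authors, per the submitters' processing notes, used STAR 2.5.2, featureCounts 1.5.1 and GRCh38. The treatment of reads that match several places is not given in the sources used here. Libraries were grouped by cell line and treatment from the labels, and all 12 were used.

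Counts were fitted in edgeR 4.0.16 (R 4.3.3) with filterByExpr at a minimum count of 10, TMM scaling and a quasi-likelihood model with a mean for each of 4 groups (robust). This kept 659 of 1204 miRNAs. P-values were adjusted over all 659 by the Benjamini-Hochberg method, with a threshold of 0.05, and the standard error was the log2 fold change over the root of the F statistic. Library totals ranged from 3870104 to 8683456 counts. A member with about 10 counts carries a wide 95% Poisson interval, and an abundant one a narrow one. Ratios of counts, with 0.5 added to each, were tested by two-sided exact permutation of the labels within cell lines or genotypes, adjusted over 14 tests. The fit and the permutation test were run on simulated data. The changes simulated for the fit were larger than those called between MPC1 KO and EV, so its recovery of changes of that size was not tested.

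Named were the 7 members, the other arms of their hairpins, the miRNAs with the family seed, hsa-miR-503-5p, hsa-miR-103a-3p, hsa-miR-107, and the 3 miRNAs most like hsa-miR-16-5p and hsa-miR-15b-5p. Other miRNAs named beside these were chosen after their values were seen. Members and lists were chosen with earlier results of these data known. The main fit did not pair libraries by replicate number. Correlations of same-numbered deviations over all miRNAs tested ran from -0.107 to 0.0912, which cannot exclude a replicate effect shared by some miRNAs. Alternatives were DESeq2 1.42.0, limma-voom with limma 3.58.1, other scalings and filters, replicate number as a block, only the libraries compared, 1 added to each count, and leaving out each library. Sequences and positions came from RefSeq on GRCh38.p14, and host genes from GENCODE. No replicate pair agreed within sampling noise, with a chi-square per degree of freedom of 13.7 or more.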

Additional observations from a re-analysis of the deposited data

Results flagged for a closer look

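The effect of MPC1 deletion on hsa-miR-503-5p, a relative of the family by its 5′ end, narrowly passed the test for a difference between the lines. The difference was -0.43 on the log2 scale (Molm-14 minus MV4-11, adjusted p = 0.0404 by edgeR). The effect was 0.40 in MV4-11, where every MPC1 KO library was above every EV library, and -0.04 in Molm-14. Over the alternatives with all libraries the adjusted p ranged from 0.0318 to 0.337, the largest with upper-quartile factors, where the difference was -0.25, and without single libraries from 0.0364 to 0.162. The call was lost with RLE factors, upper-quartile factors, total counts only and no filter. Of the fits that left out a library, only those without replicate 3 of MV4-11 EV or of Molm-14 EV kept it.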

How the results depend on the processing

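The rise of hsa-miR-497-5p in Molm-14 stayed past the threshold under each of 8 alternatives that tested it and without any single library, and the hsa-miR-15b-5p to hsa-miR-15b-3p ratio kept its direction throughout (0.34 with only the MV4-11 libraries and 0.23 with only the Molm-14 libraries, where the exact test of 3 libraries against 3 cannot pass). The count of members called in MV4-11 dropped to 0 with RLE factors, total counts, no filter and limma-voom. With a mean of at least 100 counts, which leaves out the 2 members of chromosome 17, it was 0 in Molm-14 and 3 between the EV cells, and with upper-quartile factors 1 member, hsa-miR-15b-3p, was called for the difference between the lines (0.55, adjusted p = 0.0221). Leaving out single libraries gave 0 to 1 members called in MV4-11, 1 to 2 in Molm-14 and 0 to 1 for the difference. The cause of these changes was not tested, beyond the members that the stricter filter removes.

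Among the log2 fold changes, signs turned only for values that no fit called. With total counts only, the log2 fold changes in MV4-11 were 0.046 for hsa-miR-15b-5p and 0.0013 for hsa-miR-16-2-3p. In Molm-14 that of hsa-miR-15b-3p was 0.00723 with RLE factors, 0.071 with upper-quartile factors, 0.029 with total counts, 0.018 with no filter, 0.00699 with DESeq2, 0.00086 with limma-voom, and 0.00960 with only the libraries compared. The upper-quartile difference of hsa-miR-195-5p was 0.096. Without single libraries the MV4-11 value of hsa-miR-15b-5p ran from -0.094 to 0.051, the Molm-14 values of hsa-miR-15b-3p and hsa-miR-16-2-3p from -0.033 to 0.076 and from -0.013 to 0.11, the differences of hsa-miR-16-2-3p and hsa-miR-195-5p from -0.012 to 0.18 and from -0.36 to 0.086, and the EV difference of hsa-miR-15b-5p from -0.16 to 0.068.

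With replicate number as a block, 1, 1, 0 and 5 members were called in MV4-11, in Molm-14, for the difference and between the EV cells, the same counts as without it, and the block turned the Molm-14 value of hsa-miR-15b-3p to 1.8e-05. In Molm-14 alone the MPC1 KO differences of the hsa-miR-16-1-3p to hsa-miR-16-2-3p and hsa-miR-16-5p to hsa-miR-15a-5p plus hsa-miR-15b-5p ratios were 0.084 and 0.085, and in MV4-11 alone those of hsa-miR-195-5p to hsa-miR-497-5p and hsa-miR-16-5p to hsa-miR-16-2-3p were 0.066 and -0.23. Without single libraries the MPC1 KO differences ran from -0.17 to -0.10 for hsa-miR-15a-5p to hsa-miR-15b-5p, from -0.11 to 0.034 for hsa-miR-16-1-3p to hsa-miR-16-2-3p, from -0.34 to 0.017 for hsa-miR-195-5p to hsa-miR-497-5p and from -0.055 to 0.091 for hsa-miR-16-5p to hsa-miR-16-2-3p. The differences between the lines ran from 0.14 to 0.21, from 0.31 to 0.45 and from -1.07 to -0.74 for the first 3, and some lost their call, while the MPC1 KO difference of the first gained one without replicate 3 of MV4-11 EV (-0.16) or replicate 1 of Molm-14 EV (-0.17). The share of the library held by the members differed by 0.163 percentage points between the lines, and by 0.442 with the 10 most counted other miRNAs left out of the total.

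Upper-quartile factors moved the median of all miRNAs by -0.11 in MV4-11, 0.18 for the difference and -0.18 between the EV cells. The calls among all miRNAs in MV4-11 were 13 higher and 7 lower, 10 and 15 with these factors, and 20 and 6 with total counts only. In Molm-14 they were 18 and 27, and 30 and 23 with these factors. For the difference they were 16 and 28, and 31 and 13. Without single libraries, 12 to 38 miRNAs were called in MV4-11 and 22 to 53 for the difference, and 212 of 279 between the EV cells at a mean of at least 100 counts. Counts of 12 to 49 per library limit hsa-miR-195-5p and hsa-miR-497-5p in MV4-11.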
